A study of Mus musculus with 2 samples.

Results

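The transcription factor p63 and 9 genes tied to it in basal epithelium were examined in cells of the mouse prostate labelled as luminal. The set was Trp63, Trp73, Bnc1, Trim29, Sfn, Cdh3, Fat2, Ngfr, Pthlh and Nectin1, chosen by symbol with earlier results of these data known. All 10 were found by Ensembl identifier among the 18724 rows of the deposited table. RNA came from luminal epithelial cells of normal mouse prostate at 18 weeks of age, sorted by flow cytometry. GFP-positive cells had kept a GFP label carried on histone 2B and are called label-retaining. GFP-negative cells had not kept it and are called non-retaining. Each group was 1 library of total RNA, with 50689229 reads in genes for the label-retaining cells and 48334265 for the non-retaining cells. The sources used here do not give the promoter that drove the histone label, the surface markers of the sort or the number of mice pooled.

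The prostate gland is lined by luminal cells, which secrete, and by basal cells, which lie beneath them on the basement membrane. p63 is a member of the p53 family and a defining transcription factor of basal cells in stratified and glandular epithelia, where it drives keratin, adhesion and matrix genes. It is made as a long form with a transactivating N-terminus (TA) and a short form without it (deltaN), and deltaN is the form known from basal epithelium. Both forms come from the same gene through separate promoters.

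The coding starts of both forms are shown because the deposited value of Trp63 sums them. They are the first 60 coding bases of the GENCODE M21 transcripts (GRCm38, chromosome 16, plus strand), with the start codon in capitals.
TA form, start codon at position 25684290: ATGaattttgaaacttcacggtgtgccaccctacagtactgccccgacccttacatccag
deltaN form, start codon at position 25802060: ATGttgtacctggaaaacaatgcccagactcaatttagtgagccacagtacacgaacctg
GENCODE annotates 4 TA and 4 deltaN transcripts, and 5035 of their 8391 merged exon bases belong to both forms. A count per gene therefore does not say which form the reads came from.

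Promoter sequence from RefSeq (GRCm38.p6) was matched for 6 of the 10 genes, as 7 windows that run from 250 bases before to 50 bases after a transcript start. The 80 bases before the outermost annotated start are shown for the gene whose levels were nearly equal in the libraries (Ngfr), for the gene with the lowest ratio (Pthlh), for the sparse factor Bnc1 and for the most abundant of the 10 (Sfn). All are read 5′ to 3′ on the minus strand, with the GC box GGGCGG and its complement CCGCCC in capitals.
Ngfr, chr11:95587736-95587815: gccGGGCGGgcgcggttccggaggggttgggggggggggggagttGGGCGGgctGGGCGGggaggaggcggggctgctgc
Pthlh, chr6:147264184-147264263: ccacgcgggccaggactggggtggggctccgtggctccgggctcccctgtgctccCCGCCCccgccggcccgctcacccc
Bnc1, chr7:81992300-81992379: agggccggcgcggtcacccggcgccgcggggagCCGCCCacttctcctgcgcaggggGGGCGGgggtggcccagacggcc
Sfn, chr4:133602169-133602248: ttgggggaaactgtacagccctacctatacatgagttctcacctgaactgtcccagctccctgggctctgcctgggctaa
On both strands, GGGCGG was present in 4 of the 7 windows, against 35.7% of 32851 promoter windows of this length. The unit of the p53-family response element was in 0 of the 7 windows and in 8.36% of all. TATAAA was in 0 of 7 (13.6% of all), TGANTCA in 0 of 7 (7.81%) and CACCTG in 3 of 7 (20.2%). A match is not a bound site, and a missing match says only that these letters are not in this window.

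Both libraries held reads of luminal and of basal keratins. Krt8, a luminal keratin, had 148223 reads in label-retaining cells and 89295 in non-retaining cells, and Krt18, its partner, 92019 and 63881. Marker counts here use the size call defined below, by which 14.5% of all measured genes were higher and 19.4% lower. Of 12 luminal marker genes, 6 were higher by 2-fold or more in label-retaining cells and 0 lower by as much. Per kilobase of merged exons, the basal keratin Krt17 was at 2020 normalised counts in the label-retaining library, against 75541 for Krt8 and 63900 for Krt18. In the non-retaining library Krt17 was at 43113, above Krt8 at 41485 and Krt18 at 40438. The basal keratins Krt14 at 28755, Krt15 at 27256 and Krt5 at 11894 lay below both there. With keratins of both kinds abundant, that library was not plainly luminal by its keratins. All 12 basal markers were lower in the label-retaining library, where they summed to 19132 normalised counts against 320192 in the non-retaining library. All 8 smooth muscle markers (1659 against 22567 normalised counts), 6 of 8 endothelial markers (728 against 2629) and 7 of 9 leukocyte markers were also lower. The leukocyte sum was 7333 against 16458, and 530 against 14494 without Cd52, which was higher. Of 9 fibroblast markers, 4 were lower and 3 higher. Their sum was 18767 against 93725, and without Dcn, the most abundant of them, it turned to 13848 against 9798. All 5 seminal vesicle genes were higher (83831 against 765). None of the basal, luminal, smooth muscle or endothelial markers was at 0 in either library, whereas Gzma was at 0 in the label-retaining and Svs6 at 0 in the non-retaining library. In sorted bulk samples, fewer cells of a type and less RNA per cell cannot be told apart. What part such cells had in the ratios below was not tested.

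A gene was called by size when it met 3 conditions. Its mean was at least 10 normalised counts, its log2 ratio (label-retaining over non-retaining, pseudocount 0.5) reached 1 or -1, and the 95% counting interval of that ratio did not hold equality. Normalised counts are reads divided by the authors' size factor. Each group had a single library, so there was no replicate check and no test. The intervals given with ratios cover counting error only, and they compare these libraries, not the conditions.

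Of the 10 p63 network genes, 9 were called lower in the label-retaining library and 0 higher, where 19.4% of all 17183 measured genes were called lower and 14.5% higher. Their median log2 ratio was -4.33, beside -0.0052 over all measured genes. Ngfr was the exception, with nearly equal levels. All 10 passed the filter on low values, but Trp73 and Bnc1 passed through the non-retaining library, where they had more reads. Those with a mean of at least 100 normalised counts were 8, of which 7 were called lower (16.7% of all genes with such a mean). Among them, Trim29 (84.8 against 1910 normalised counts) and Pthlh (17.0 against 586) reached that mean only through the non-retaining library. Together the 10 genes held 7599 label-retaining reads and 102683 non-retaining reads, and Sfn supplied 48.6% of those of label-retaining and 32.7% of those of non-retaining cells.

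**Figure D1:**
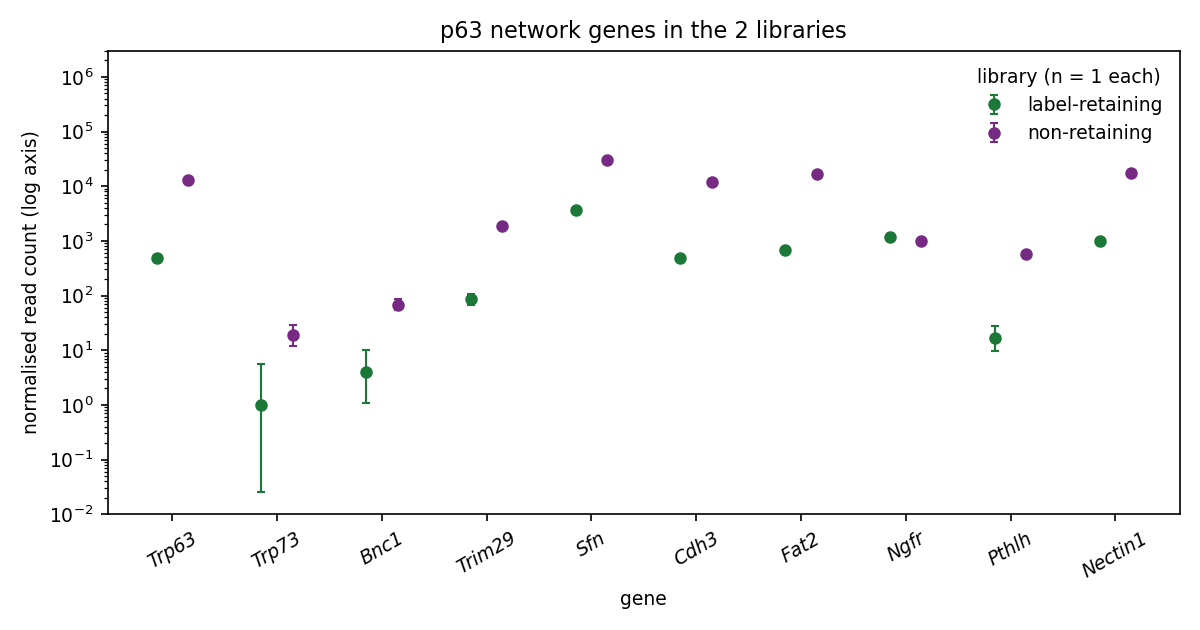
Normalised read counts (log axis) of the 10 genes in the label-retaining (left point of each pair) and non-retaining library (right point), with exact 95% Poisson intervals of the counts as bars, which are hidden behind most points. The label-retaining point lies below the non-retaining point for every gene but Ngfr, at 1154 against 1008 normalised counts.

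Trp63, which encodes p63 itself (ENSMUSG00000022510.13, chromosome 16, 25683763 to 25892102, plus strand, GRCm38), had 483 reads in label-retaining cells and 14154 in non-retaining cells. This was 26.7-fold lower, a log2 ratio of -4.74 (interval -4.87 to -4.61), and 1.25% of measured genes had a lower ratio. Its relative Trp53, which encodes the tumour suppressor p53, had 1648 and 3675 reads and a log2 ratio of -1.02 (-1.11 to -0.94). Per kilobase of merged exons, Trp63 stood below Trp53 in label-retaining cells, at 57.4 against 407 normalised counts, and above it in non-retaining cells, at 1534 against 826.

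Trp73, the third gene of the family (ENSMUSG00000029026.15, chromosome 4, 154056253 to 154140208, minus strand), was at the edge of detection. It had 1 read in label-retaining and 21 reads in non-retaining cells, with a log2 ratio of -3.71 whose interval ran from -9.63 to -1.62. In 4.12% of its 50-base stretches its transcripts were identical to the antisense gene Trp73os, and how strand was handled in counting is not stated. p73 is known from multiciliated cells. Of 4 measured ciliated cell markers 1 was lower (Myb) and 0 higher (19.4% and 14.5% of all measured genes). Foxj1, the master factor of ciliated cells, had 61 and 41 reads.

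Bnc1 encodes basonuclin, a zinc finger protein of basal keratinocytes and germ cells (ENSMUSG00000025105.8, chromosome 7, 81966672 to 81992292, minus strand). It had 4 reads in label-retaining and 75 reads in non-retaining cells, with a log2 ratio of -3.94 (-6.01 to -2.68). Its relative Bnc2 had 27 and 349 reads and a ratio of -3.53 (-4.18 to -2.99). The intervals of the pair overlap. Both genes were sparse in label-retaining cells, as was Bnc1 in non-retaining cells, where 74.3% of measured genes were more abundant than Bnc1.

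Trim29 encodes a tripartite motif protein of stratified epithelium, also called ATDC (ENSMUSG00000032013.5, chromosome 9, 43310848 to 43336115, plus strand). It had 85 reads in label-retaining cells and 2100 in non-retaining cells, a log2 ratio of -4.49 (-4.82 to -4.18).

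Sfn encodes 14-3-3 sigma, an adaptor protein of stratified epithelium and a target of p53 in human cells (ENSMUSG00000047281.3, chromosome 4, 133600556 to 133602168, minus strand). It was the most abundant of the 10 in both libraries, with 3692 reads in label-retaining and 33599 in non-retaining cells. Its log2 ratio of -3.05 (-3.10 to -3.003) was nearer to equality than that of the other 8 genes called lower, but its interval overlapped those of Trp73 and Bnc1. With a pseudocount of 5 the ratios of Trp73 (-2.01) and Bnc1 (-3.03) were nearer to equality than that of Sfn (-3.05). Its transcript has 1 exon, and 235 of its 1564 stretches of 50 bases also occur in 3 other annotated genes (Gm5279, Gm7850 and Ywhaq-ps1), and how reads from these stretches were assigned is not stated. Of the 7 genes of the 14-3-3 family, Sfn alone was called at 2-fold under the deposited scaling. This count of 1 lower and 0 higher is near the shares of all measured genes (19.4% and 14.5%). The other 6 had log2 ratios from -0.54 for Ywhaz to 0.85 for Ywhah. Per kilobase, Sfn was the fourth of the 7 in label-retaining cells, at 2284 normalised counts against 4565 for Ywhaz, and the first in non-retaining cells, at 18948 against 6638.

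The adhesion genes of the set were lower by 24.7-fold for Fat2, 24.0-fold for Cdh3 and 18.0-fold for Nectin1, whose interval overlapped neither of the others. Cdh3, which encodes P-cadherin, a cell-cell adhesion protein of basal cells (ENSMUSG00000061048.7, chromosome 8, 106510891 to 106557297, plus strand), had 493 reads in label-retaining and 13002 in non-retaining cells, with a ratio of -4.59 (-4.72 to -4.46). Cdh1, the E-cadherin of all epithelial cells, had 77310 and 146957 reads and a log2 ratio of -0.79 (-0.81 to -0.78), within 2-fold. The catenin genes Ctnnb1, Ctnna1, Ctnnd1 and Jup, whose proteins form complexes with these cadherins, lay between -0.21 and 0.13. Per kilobase, Cdh1 exceeded Cdh3 in both libraries, at 16866 against 112 normalised counts in label-retaining and 29226 against 2698 in non-retaining cells. Of the 10 cadherin and catenin genes, 4 were called lower and 1 higher (19.4% and 14.5% of all measured genes). Beside Cdh3 the lower ones included Cdh11, known from mesenchyme, at -3.92 (-4.61 to -3.35), and Cdh5, the cadherin of endothelium, at -1.20. Cdh4, with 16 and 36 reads, was also lower at -1.01 (-1.99 to -0.15). With a pseudocount of 1 or 5, 3 of the 10 genes were called lower. The higher one was Cdh2, the neural N-cadherin, at 1.32 (1.01 to 1.64).

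Fat2 encodes a giant protocadherin that acts in epithelial cell migration in Drosophila (ENSMUSG00000055333.13, chromosome 11, 55250609 to 55336564, minus strand). It had 680 reads in label-retaining and 18469 in non-retaining cells, a log2 ratio of -4.63 (-4.74 to -4.52). Fat1, the most abundant of the family, was at -0.91 (-0.94 to -0.88), Fat4 at -1.43 (-1.57 to -1.29), and Fat3, with 26 and 31 reads, at -0.12 (-0.93 to 0.68). Dchs1, a partner of Fat4, was lower at -3.11 (-3.65 to -2.63), as was Fjx1, a relative of the Drosophila kinase four-jointed, at -3.82 (-4.07 to -3.59). Dchs2, with 0 and 5 reads, was too sparse to be measured.

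Nectin1 encodes an immunoglobulin-like adhesion molecule of adherens junctions (ENSMUSG00000032012.7, chromosome 9, 43743984 to 43807461, plus strand). It had 988 reads in label-retaining and 19511 in non-retaining cells, a ratio of -4.17 (-4.26 to -4.08). Its relatives did not share that ratio. Nectin2 was at -0.23 (-0.27 to -0.19) and Nectin3 at -0.96 (-1.14 to -0.78), whereas Nectin4 had 1270 and 327 reads and was higher at 2.09 (1.91 to 2.27). Per kilobase, Nectin1 lay below Nectin4 in label-retaining cells, at 174 against 338 normalised counts, and far above it in non-retaining cells, at 3140 against 79.4. Afdn, which encodes the adaptor afadin that binds nectins, was at 0.74 (0.69 to 0.79).

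**Figure D2:**
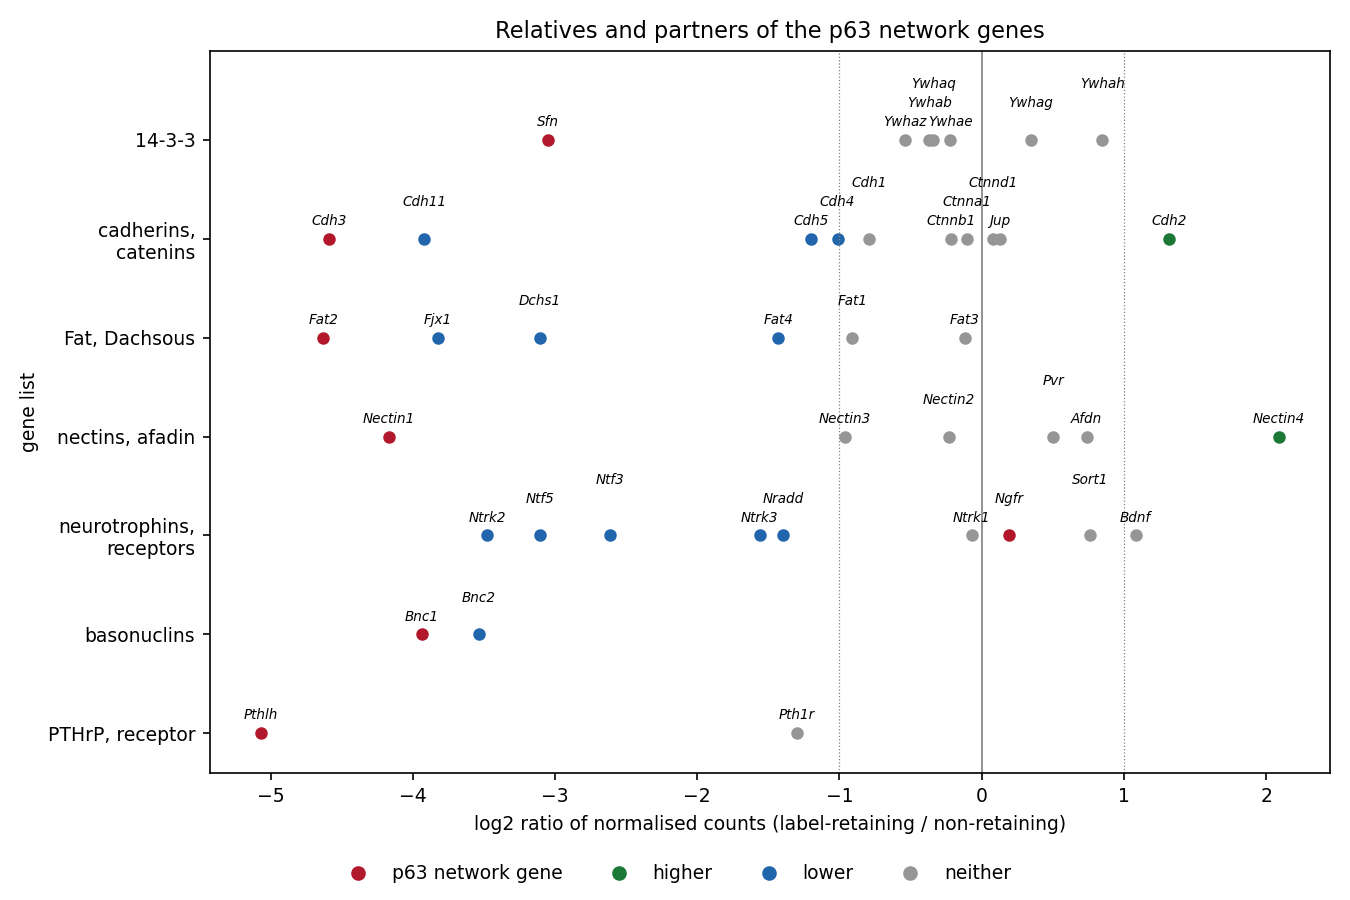
Log2 ratio of normalised counts (label-retaining over non-retaining, x axis) of measured genes in 7 lists of relatives and partners (rows). Red points are the p63 network genes, other colours give the size call, and dotted lines mark 2-fold; Sfn, Cdh3, Fat2 and Nectin1 each lie left of their measured relatives, whereas Ngfr lies near 0.

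Pthlh encodes the secreted parathyroid hormone-related protein (ENSMUSG00000048776.7, chromosome 6, 147252101 to 147264183, minus strand). It had 17 reads in label-retaining cells and 644 in non-retaining cells. Its log2 ratio of -5.07 was the lowest of the 10, but the interval (-5.90 to -4.42) overlapped that of Trp63. The receptor gene Pth1r had 6 and 17 reads, and the interval of its ratio of -1.30 reached up to 0.04 and held equality.

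Ngfr encodes the neurotrophin receptor p75, a surface protein of basal epithelial cells, Schwann cells and neurons (ENSMUSG00000000120.6, chromosome 11, 95568818 to 95587735, minus strand). It had 1156 reads in label-retaining and 1108 in non-retaining cells. Its log2 ratio was 0.19 (0.07 to 0.31), and 59.0% of measured genes had a lower one. The sign depended on the scaling, as the ratio was -0.0074 when libraries were scaled by total reads and -0.57 when they were scaled on Krt8 and Krt18. Under each scaling Ngfr stayed within 2-fold.

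Markers of nerve sheath cells had their own values beside Ngfr. Of 9 nerve and Schwann cell markers, 6 were higher in the label-retaining library and 1 lower (14.5% and 19.4% of all measured genes). Their median log2 ratio was 2.21. Their sums were 22617 against 10625 normalised counts, and 13916 against 7995 without Erbb3, the most abundant of them. Sox10, a defining transcription factor of these cells, had 297 reads in label-retaining and 54 in non-retaining cells, with a ratio of 2.58 (2.17 to 3.04). Cdh19 was at 3.16 (2.96 to 3.37), S100b at 2.84 (2.32 to 3.45) and Foxd3 at 2.21 (1.81 to 2.65). No marker of the list was at 0 in either library. Their part in the Ngfr value was not tested.

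Among neurotrophins and their receptors, 6 of 10 measured genes were called lower and 0 higher (19.4% and 14.5% of all measured genes), with a median of -1.23. The receptor kinase Ntrk2 had 125 and 1533 reads (-3.48, -3.76 to -3.22), and the ligand Ntf5 had 41 and 392 reads (-3.11, -3.62 to -2.66). Sort1, which encodes sortilin, a partner of p75, was at 0.76 (0.72 to 0.80) with 12647 and 8176 reads.

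The network genes were also set against the basal keratins, and the outcome depended on which keratins were used. Krt5 and Krt14 together had 3086 reads in label-retaining and 84296 in non-retaining cells, a log2 ratio of -4.64 (-4.69 to -4.59). Per 1000 keratin reads, Fat2 had 220 reads in label-retaining and 219 in non-retaining cells, Cdh3 160 and 154, Trp63 157 and 168, and Trim29 27.5 and 24.9. The interval of this relative ratio held equality for these 4 genes, and was narrow for Fat2, at 0.0082 on the log2 scale (-0.12 to 0.13). It also held equality for Pthlh (-0.47, -1.26 to 0.22), Bnc1 (-1.37 to 1.96) and Trp73 (-4.99 to 3.02), whose few reads left wide intervals.

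Krt15 and Krt17, basal keratins set beside the genes after the data had been seen, had a summed log2 ratio of -4.39 (-4.43 to -4.35). Relative to this pair, Trp63 was lower in label-retaining cells at -0.35 (-0.49 to -0.21), as were Fat2 at -0.24 (-0.36 to -0.12), Cdh3 at -0.20 (-0.34 to -0.061) and Pthlh at -0.72 (-1.51 to -0.027). The interval of Trim29 still held equality (-0.44 to 0.21). Krt5 (-4.86 to -4.67) and Krt14 (-4.64 to -4.51) did not overlap each other either.

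The other 3 genes were more abundant in label-retaining cells relative to either pair of keratins. Nectin1 had 320 reads per 1000 reads of Krt5 and Krt14 there and 231 in non-retaining cells, a relative log2 ratio of 0.47 (0.36 to 0.57), which was 0.22 (0.12 to 0.32) relative to Krt15 and Krt17. Sfn had 1196 and 399, a relative ratio of 1.59 (1.51 to 1.66). Ngfr had 375 and 13.1, a relative ratio of 4.83 (4.70 to 4.96).

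**Figure D3:**
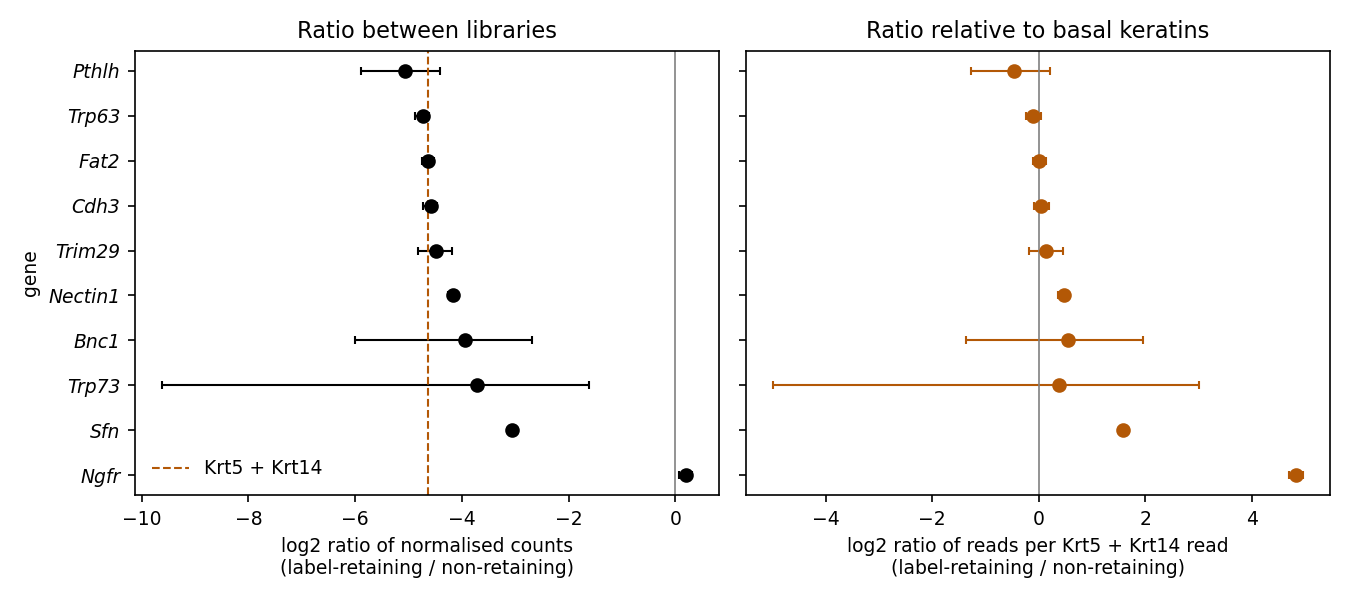
Left, log2 ratio of normalised counts (label-retaining over non-retaining) with exact 95% counting intervals, and the ratio of Krt5 plus Krt14 as a dashed line. Right, the same ratio relative to Krt5 plus Krt14 reads, with exact conditional intervals; Trp63, Fat2, Cdh3 and Trim29 lie near 0, and Nectin1, Sfn and Ngfr lie to its right.

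The order of levels within the set was the same in both libraries but for Ngfr. Per kilobase of merged exons, Ngfr was second in label-retaining cells, with 335 normalised counts, and eighth in non-retaining cells, with 292. The other 9 ran Sfn, Nectin1, Cdh3, Trp63, Fat2, Trim29, Pthlh, Bnc1 and Trp73 from high to low in each library. In label-retaining cells the counting intervals of Bnc1 and Trp73 overlapped, and all other neighbours in either order differed beyond counting error.

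**Figure D4:**
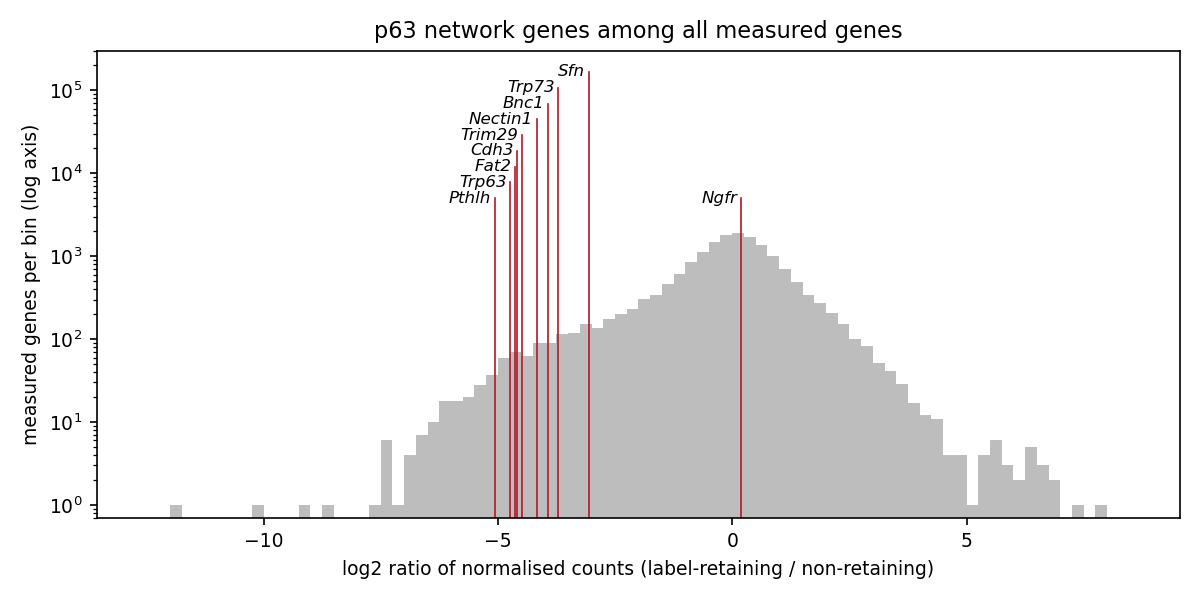
Number of measured genes per bin (log axis) by log2 ratio of normalised counts (label-retaining over non-retaining), with the 10 genes marked by red lines whose height only separates the names. Of the 10, 9 lie between -5.07 and -3.05 in the left tail, and Ngfr lies near the peak.

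Genes known as targets of p63 in epithelium, mostly from epidermis, were largely lower. Of 24 measured, 18 were called lower, 1 higher and 5 neither (19.4% of all measured genes were lower and 14.5% higher). Their median log2 ratio was -2.83. Col17a1, a collagen of hemidesmosomes, was at -4.78 (-4.86 to -4.70), and Krt5 (-4.77) and Krt14 (-4.58) stood beside Trp63. Snai2 had 54 and 1139 reads (-4.25, -4.69 to -3.87).

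Not every target was lower. Zfp750, a differentiation factor of epidermis, had 579 reads in label-retaining and 118 in non-retaining cells and was higher at 2.42 (2.14 to 2.73). Among those within 2-fold were Ripk4 (-0.71), Chuk (0.86) and Satb1 (0.96). Of the 24 targets, 8 are also among the 12 basal markers, so these counts are not separate evidence.

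Of 18 measured genes of the p53 pathway, 4 were lower, 1 higher and 13 neither, with a median of -0.12. The count lower is near the share of all measured genes called lower (19.4%), and 14.5% of all measured genes were called higher. The lower ones were Sesn1 (-2.70, -2.85 to -2.55), Phlda3 (-1.89), Pmaip1 (-1.48) and Trp53 itself, and the higher one was Zmat3 (1.43, 1.24 to 1.61). Cdkn1a, which encodes the inhibitor p21, was at -0.23 (-0.29 to -0.18), and Mdm2, which encodes the ligase that degrades p53, at 0.38 (0.33 to 0.44). Of 7 genes for proteins that regulate p53 or p63, such as the ligase Itch (0.38), 0 were lower and 1 was higher, Ppp1r13b at 1.002 (0.94 to 1.07). That count higher is near the share of all measured genes called higher (14.5%). With total-read scaling 2 of the 7 were called lower and 0 higher, where 4001 of all 17204 measured genes were lower and 1917 higher.

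**Figure D5:**
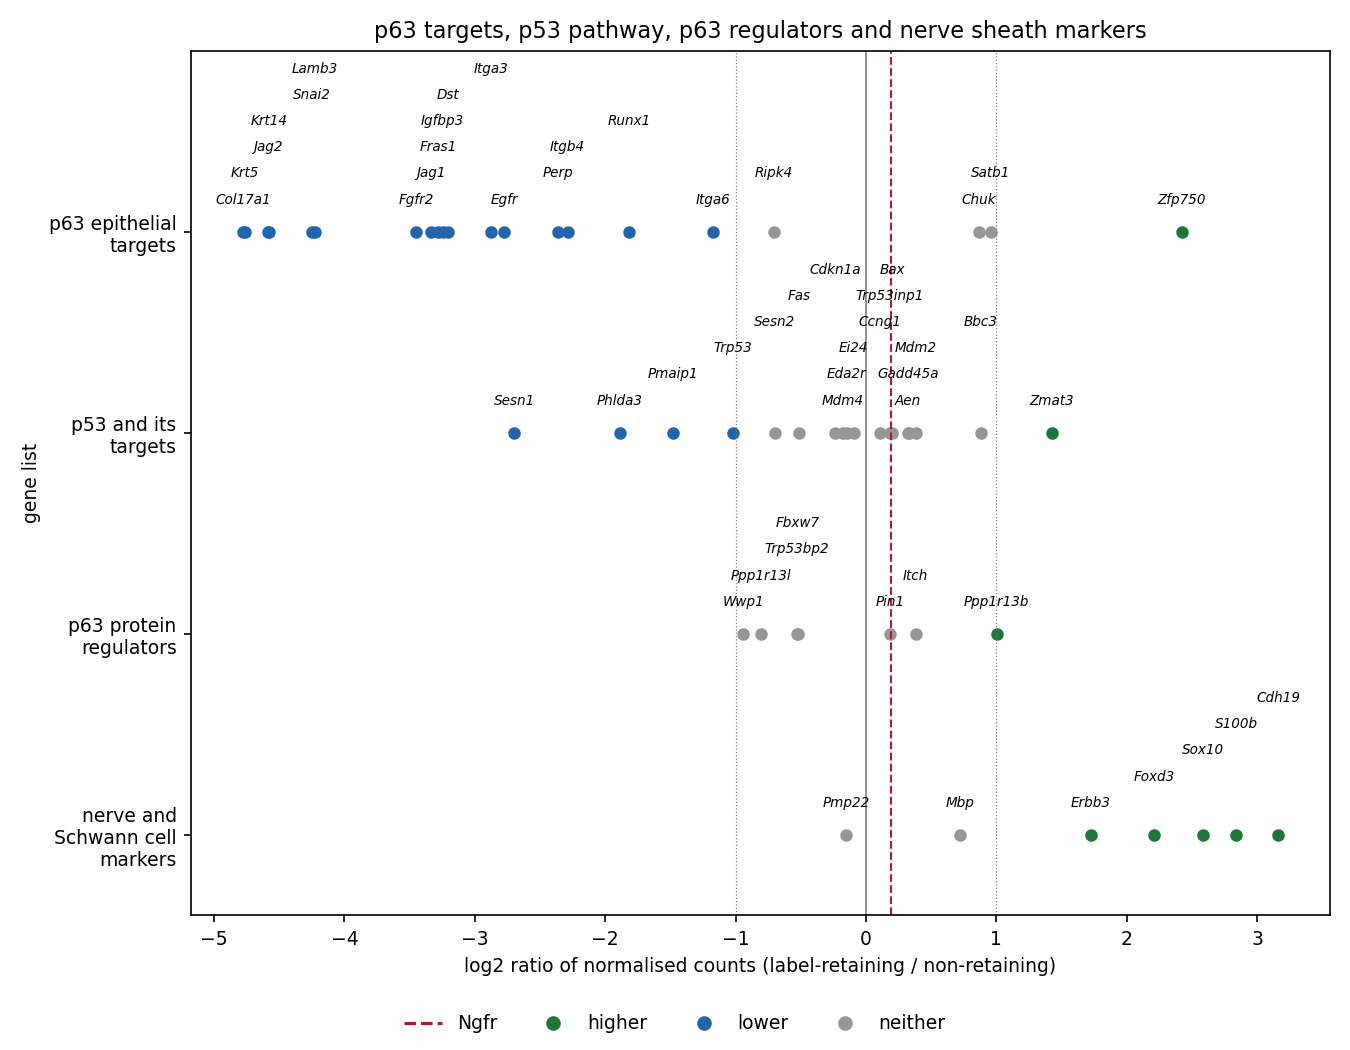
Log2 ratio of normalised counts (label-retaining over non-retaining, x axis) of genes of 4 lists (rows), coloured by size call, with dotted lines at 2-fold and a dashed line at the Ngfr ratio of 0.19. Of 21 p63 targets shown 17 lie left of -1, most p53 pathway genes lie around 0, and 5 of 7 nerve and Schwann cell markers shown lie right of 1.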

How the data were processed

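The table held 1 column per library. Its values were a normalised signal: counts of reads per gene, scaled by the authors with a size factor for each library. The deposited values show this, since 100% were whole multiples of a step (within 0.01). Factors were 1.002 for label-retaining and 1.10 for non-retaining cells. Per the submitters' processing notes, the tools were DESeq 1.16.0, HTSeq 0.6.0, TopHat2 2.0.10, Bowtie2 2.1.0 and CASAVA 1.8.2, with the build mm10 and no role stated. The sources used here do not state strand handling or the annotation.

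Symbols, positions and exon lengths came from GENCODE M21 on GRCm38 (18634 of 18724 rows matched). Log2 ratios used a pseudocount of 0.5 and exact (Clopper-Pearson) 95% intervals of the read share, or exact conditional intervals relative to keratin reads (Python 3.11.15, SciPy 1.17.1). They cover counting error only. The calculation was checked on simulated Poisson counts, which have only the counting error that the intervals assume. That check does not address variation between libraries. No test between groups was possible with 1 library each. All 10 genes were named, and from each list the called genes farthest from equality and the most abundant one. Others were named after their values were seen, and some are not reported here. The genes and lists were chosen with earlier results of these data known. Alternatives were other pseudocounts, scalings (among them TMM of edgeR 4.0.16) and filters and, chosen after seeing the data, other basal keratins and marker sums without 1 gene.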

Additional observations from a re-analysis of the deposited data

How the results depend on the processing

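The count of 9 genes called lower was the same under pseudocounts of 1 and 5, the TMM, median, total-read and Krt8 and Krt18 scalings, and no filter. Across these settings the share of all measured genes called lower ran from 18.4% to 23.3%, except for 40.5% with the Krt8 and Krt18 scaling. The count was 7 of 8 with a mean of at least 100 normalised counts, where the share was 16.7%. The median log2 ratio of the 10 genes was -4.54 under that filter, -4.53 with total-read scaling and -5.09 with the Krt8 and Krt18 scaling. That last scaling moves every log2 ratio by -0.76. It turned the split over all 17256 measured genes to 923 higher and 6984 lower (2483 and 3330 of 17183 under the deposited scaling). With it, 21 of 24 p63 targets were called lower, and 5 of 9 nerve and Schwann cell markers stayed higher. Also called lower were 4 of 7 genes of the 14-3-3 family and 4 of 7 p53 and p63 regulators (40.5% of all measured genes). In that setting 0 of 18 p53 pathway genes were called higher, and the nectin median turned to -0.63 (0.14 under the deposited scaling). Genes whose ratio relative to basal keratins held equality were 7 with Krt5 and Krt14, 3 with Krt15 and Krt17 and 5 with all 4 keratins, the last 2 choices made after seeing the data. Ratios rest on 1 read for Trp73, 4 for Bnc1 and 17 for Pthlh in label-retaining cells, so that these are the least precise. No paired analysis was possible because each group had 1 library.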
